A study of Mus musculus with 4 samples.

Results

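The genes described here carry the Wnt signal from the secreting cell to the transcription of its targets in mouse embryonic stem (mES) cells. The 53 genes were chosen by their known roles, without a rule on measured values but with earlier results of these data known. They comprise 9 Wnt ligands, 2 genes of ligand secretion, 14 receptors and co-receptors, 4 genes of the Dishevelled relay, 6 genes of the β-catenin destruction complex and its substrate, 7 TCF factors and their partners, 6 feedback targets and 5 secreted antagonists. Of these, 52 were measured, out of 18193 genes with a probe set of their own on the array. Tcf7, a TCF factor, was not analysed here.

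RNA was taken from E14 cells, an established mES cell line, cultured in serum-containing medium with leukaemia inhibitory factor (LIF). Control RNAi cells were transfected with the pSuper.puro vector as mock knock-down. The study's array methods instead name a plasmid for a control short hairpin RNA (shRNA). Zfp322a RNAi cells received a plasmid for an shRNA against Zfp322a, a zinc finger protein that the study examined for its role in pluripotency. Puromycin was applied to both groups for 3 days according to the labels, although the study's methods give a longer selection for the arrays. Each group had 2 samples and each sample had 1 Affymetrix MG430 2.0 array. The samples were transfected and selected populations, not clones. The study links Zfp322a to Wnt signalling among other pathways, and the comparison addresses which steps of that pathway differed in RNA after the knock-down.

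The study designed 2 hairpins against Zfp322a. Their sense stems of 19 bases are shown because they are the agent that separates the groups, and the labels do not say which of them was used for the arrays.
Zfp322a shRNA-1: acagaggagctccattata
Zfp322a shRNA-2: acttagcacgaatgtgtga
Zfp322a itself had log2 values of 8.75 and 8.84 in control RNAi and of 7.53 and 7.13 in Zfp322a RNAi. It fell by 1.47 ± 0.14 on the log2 scale, to 36.2% of control (limma, adjusted p = 0.00158). Its other probe set had 8.82 and 8.89 against 7.08 and 6.89. Both probe sets thus separated the groups in the direction of the labels.

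In the canonical pathway, Wnt proteins are lipid-modified by Porcn in the endoplasmic reticulum and carried to the cell surface by Wls. They bind Frizzled receptors together with Lrp5 or Lrp6, and Dishevelled proteins then hold back the destruction complex of Axin, Apc and the kinases Gsk3 and Csnk1a1. β-catenin, encoded by Ctnnb1, escapes degradation, enters the nucleus and joins TCF factors on target genes, some of which feed back on the receptors and on Axin. In mES cells Wnt signalling favours self-renewal, in large part by relieving the repression that Tcf7l1 exerts on pluripotency genes.

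Among the 52 measured genes, 12 were higher and 6 were lower in Zfp322a RNAi, and 34 did not pass the test (limma, Benjamini-Hochberg adjustment over all 18193 genes, threshold 0.05). Over all genes tested, 14% were called higher and 14.4% lower, 28.4% in all, so that 23.1% higher and 11.5% lower among the Wnt genes stand beside a background in which calls were common. The median log2 difference was -0.0025 over the Wnt genes and -0.04 over all genes, and the median size of the difference, whatever its direction, was 0.16 and 0.155. A change of at least 1.5-fold, the rule of the study's methods, was met by 4 Wnt genes, Wls, Porcn, Znrf3 and Csnk1e, or 7.69%, against 8.25% of all genes. The 2 arrays of one group did not overlap with those of the other for 38 of 52 Wnt genes (73.1%) and for 62.6% of all genes. The genes are described in the order of the pathway, from the secreted signal to its targets.

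Each adjusted p rests on 2 arrays against 2, and nothing in the labels says that the replicates came from separate cultures, so the p-values measure only the spread between these samples. Without any 1 of the 4 arrays (either control RNAi or either Zfp322a RNAi replicate), 0 Wnt genes passed the adjusted threshold, while 11 to 13 were higher and 5 to 7 lower at an unadjusted p under 0.05, against 14 and 8 with all arrays. This was shared by the whole array, since 0 of all 18193 genes passed in each of these 4 fits, with 5147 to 5768 at an unadjusted p under 0.05 against 7184 with all arrays.

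**Figure D1:**
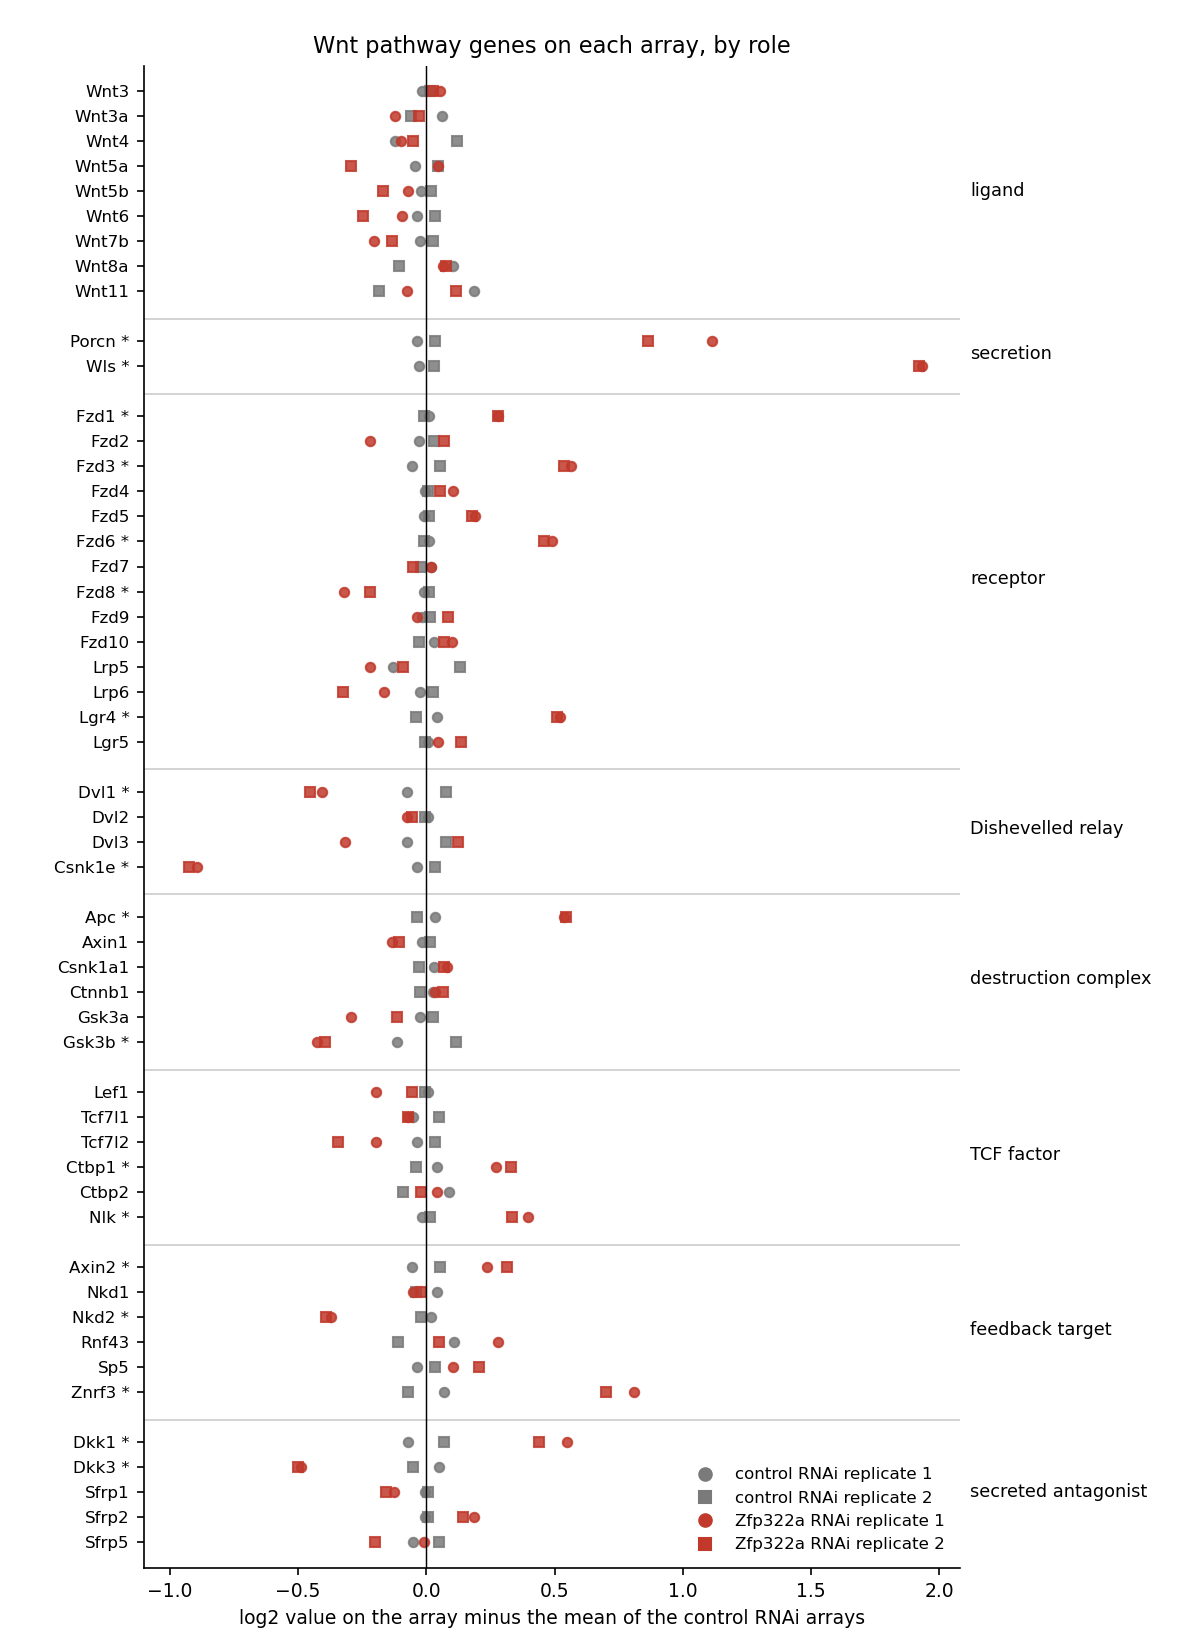
Log2 value on each array of the 52 measured Wnt pathway genes, set against their control RNAi mean (horizontal axis, difference in log2), grouped by role (rows). Grey symbols are control RNAi, red symbols Zfp322a RNAi, circles replicate 1 and squares replicate 2, and an asterisk marks the 18 genes that passed the test. The red symbols of Wls lie furthest to the right and those of Csnk1e furthest to the left, and the ligands stay near 0.

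The arrays were alike within groups (correlation over 45037 probe sets of 0.998 in control RNAi and 0.998 in Zfp322a RNAi) and less so between them (0.989 to 0.990). Of 6 markers of mES cells, Tdgf1 was lower. The other 5 did not pass: Pou5f1 (-0.055), Nanog (-0.025), Sox2 (0.015), Zfp42 (0.06) and Dppa5a (-0.16). By real-time PCR the study reported Pou5f1, Nanog, Sox2 and Zfp42 RNA as reduced after the knock-down, which these array values do not show. The study also reported less of their proteins, which arrays do not measure, and counted many pluripotency genes among those that fell on its arrays. The mean log2 value of the 6 markers was 13.0 to 13.1 in control RNAi and 12.9 on both Zfp322a RNAi arrays. The highest value on any array was 14.61, and whether signals this bright still follow the RNA was not tested. Markers of primitive endoderm, an early extra-embryonic lineage, were higher for 5 of 6 genes (Gata6, Sox17, Sox7, Pdgfra and Dab2), beside 14% of all genes. Gata4, the remaining marker, had a difference of -0.13 ± 0.10 and did not pass. The mean log2 value of the 6 went from 5.87 and 5.90 to 6.46 and 6.42, and 5 of them lay under the median level of all genes. Trophectoderm markers were split, with Gata3 higher and Krt7 lower among 6, and of 8 fibroblast markers 0 were higher and 1, Thy1, was lower. In such bulk RNA, fewer cells of a type and less RNA per cell cannot be told apart, and the part of the primitive endoderm markers in the differences below was not tested.

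The genes that load and export Wnt proteins showed the largest rise of the pathway. Wls, the carrier that takes lipidated Wnt proteins to the cell surface, had log2 values of 5.41 and 5.47 in control RNAi and of 7.37 and 7.36 in Zfp322a RNAi. The difference was 1.93 ± 0.07 (SE, n = 2 per group), a 3.80-fold rise with a 95% interval of 1.76 to 2.09 on the log2 scale (adjusted p = 0.000295). The groups were far apart and the replicates of each nearly coincided. The mean of Wls over the 4 arrays lay under the median level of all genes (7.065). Its control values were below that level and its knock-down values above it. No detection call was used here, so whether its control values stood above background was not tested and the fold is given as measured. Porcn, the acyltransferase that attaches the lipid, had 6.67 and 6.74 in control RNAi and 7.82 and 7.57 in Zfp322a RNAi. It rose by 0.99 ± 0.10, or 1.99-fold (adjusted p = 0.00194), and its lowest knock-down array stood above its highest control array.

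Wls was read by 4 probe sets, and 3 of them rose in a fit over all 45037 probe sets, in which 20.1% of probe sets passed. The second brightest went from 5.75 and 5.52 to 7.08 and 6.95, a difference of 1.38 ± 0.11, and the third from 5.05 and 5.07 to 5.59 and 5.43, a difference of 0.45 ± 0.09. The dimmest, at 3.34 and 3.40 against 3.42 and 3.49, did not pass. The direction was shared, but the size depended on the probe set, and the mean of all 4 gave 0.96. Porcn had a single probe set, so its rise has no second reading.

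The recycling of Wls to the Golgi depends on the retromer. Further genes counted under secretion were taken from a second list of pathway genes. Of 5 measured, 4 rose: the retromer subunits Vps26a (0.71 ± 0.07, or 1.64-fold) and Vps35 (0.55 ± 0.07), the sorting nexin Snx3 (0.32 ± 0.07), which works with the retromer on Wls, and Atp6ap2 (0.44 ± 0.07), an accessory protein of the vacuolar proton pump that also associates with Wnt receptors. The retromer subunit Vps29 did not pass (0.07 ± 0.07). On the arrays, Vps26a had 9.99 and 10.02 in control RNAi and 10.71 and 10.72 in Zfp322a RNAi. All 7 genes counted under secretion in both lists, Atp6ap2 among them, had positive differences, and 6 passed, beside 14% of all genes called higher. The difference of Vps29 was no larger than its SE. The 5 genes of the second list all lay above the median level of all genes, where calls were more common. Of the 5163 genes called over the whole array, 1154 lay under that level. Both lists were chosen with earlier results of these data known. Genes of the second list were read by their brightest probe set alone. Vps29, Vps35 and Atp6ap2 had further probe sets, which were not compared.

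None of the 9 Wnt ligands passed the test. Their log2 differences lay between -0.17 (Wnt6 and Wnt7b) and 0.07 (Wnt8a), with 95% intervals that reached from -0.42 to 0.36 across the 9, so that a change of 1.5-fold or more in the measured values lay outside every interval. At an unadjusted p under 0.05 the count was also 0. Wnt7b, the ligand with the lowest adjusted p (0.132), had 8.16 and 8.21 in control RNAi and 7.98 and 8.05 in Zfp322a RNAi. Wnt3, Wnt3a, Wnt4, Wnt5a, Wnt5b and Wnt11 had differences of -0.13 to 0.04. Of the 10 further Wnt genes and the 4 R-spondins, secreted proteins that strengthen Wnt signals, on the second list, 0 of 14 passed either, with 0 at an unadjusted p under 0.05. Most ligand probe sets were dim, and 8 of the 9 ligands lay under the median level of all genes, so that the intervals set no limit on the RNA where a probe set is at background. Wnt7b, the exception, passed in 1 alternative, a fit restricted to genes above that level, in which 59.4% of the genes tested were called. Wnt6 had a second, dimmer probe set that fell, from 5.73 and 5.79 to 5.25 and 5.12 (-0.58 ± 0.08, adjusted p = 0.00718), which its brightest probe set, at -0.17 ± 0.08, did not show.

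Among the 14 receptors and co-receptors, 4 rose, 1 fell and 9 did not pass, and none changed by 1.5-fold. Of all genes, 14% rose and 14.4% fell. Fzd3 rose by 0.55 ± 0.07, Lgr4, a receptor for R-spondins, by 0.52 ± 0.07, Fzd6 by 0.48 ± 0.07 and Fzd1 by 0.28 ± 0.07, whereas Fzd8 fell by 0.27 ± 0.07. Lgr4 had 10.14 and 10.06 in control RNAi and 10.62 and 10.61 in Zfp322a RNAi. Fzd3 had 6.87 and 6.98 against 7.49 and 7.46, and Fzd6 had 7.66 and 7.64 against 8.14 and 8.11. On these probe sets, the brightest of each gene, the groups were separated by several times the gap between replicates. The dimmer probe sets of the 3 genes did not pass, with differences of 0.04 for Lgr4, of -0.06 and 0.02 for Fzd6 and of -0.12 to 0.53 for the 5 of Fzd3. The mean of all probe sets was 0.28 for Lgr4, which still passed, and 0.26 for Fzd3 and 0.15 for Fzd6, which did not. Fzd3 and Fzd6 are Frizzled proteins known for planar cell polarity as well as for β-catenin signalling. The calls of Fzd1, with 5.79 and 5.77 against 6.06 and 6.06, and of Fzd8, with 6.34 and 6.36 against 6.03 and 6.13, had the highest adjusted p of the 5 (0.0261 and 0.0388). The dimmer probe set of each had the opposite sign and did not pass (-0.07 for Fzd1 and 0.10 for Fzd8).

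The receptors that did not pass were Fzd2, Fzd4, Fzd5, Fzd7, Fzd9, Fzd10, Lrp5, Lrp6 and Lgr5, with differences of -0.25 to 0.19. Lrp6, a co-receptor that Wnt signals require, came close on its brightest probe set, with 8.96 and 9.01 in control RNAi and 8.82 and 8.66 in Zfp322a RNAi (-0.25 ± 0.08, adjusted p = 0.0758). Its other probe set went from 7.98 and 8.17 to 7.41 and 7.39 and fell by 0.68 ± 0.09, to 62.6% of control (adjusted p = 0.00567 over all probe sets). Lrp6 was thus lower on every Zfp322a RNAi array by both readings, and only the dimmer of them passed. Fzd5 had 10.15 and 10.17 against 10.35 and 10.34 (0.19 ± 0.07, adjusted p = 0.0907). Fzd7 had 9.14 and 9.10 against 9.14 and 9.07, with overlapping groups. Fzd4 had 6.33 and 6.34 against 6.44 and 6.39 on its brightest probe set (0.08 ± 0.07), and a dimmer one fell, from 6.12 and 6.45 to 5.86 and 5.79 (adjusted p = 0.0461 over all probe sets). Of 11 further receptors, co-receptors and polarity proteins measured, 1 rose, Ptk7, and 2 fell, Vangl1 and Celsr1, beside 14% and 14.4% of all genes.

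In the Dishevelled relay, 2 of 4 genes fell and 0 rose, beside 14.4% and 14% of all genes. Csnk1e, a casein kinase that phosphorylates Dishevelled, had log2 values of 10.28 and 10.35 in control RNAi and of 9.42 and 9.39 in Zfp322a RNAi. It fell by 0.91 ± 0.07, to 53.2% of control (adjusted p = 0.00113), the largest fall among the Wnt genes. A second probe set had 9.62 on both control arrays and 9.18 and 9.13 in Zfp322a RNAi, a fall of 0.47 ± 0.08, and the third and dimmest did not pass (-0.05 ± 0.08). Dvl1, a Dishevelled protein, had 10.38 and 10.53 against 10.05 and 10.00 and fell by 0.43 ± 0.08 (adjusted p = 0.0120). Its other probe set had -0.31 ± 0.09 and did not pass (adjusted p = 0.0628), although its arrays did not overlap either.

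The other two Dishevelled genes did not pass. Dvl2 had 8.72 and 8.71 against 8.64 and 8.66, and Dvl3 had 5.87 and 6.02 against 5.63 and 6.07, with differences of -0.07 ± 0.07 and -0.10 ± 0.15. Of 11 further genes around Dishevelled, 3 rose and 2 fell, beside 14% and 14.4% of all genes. Prickle2, of the planar polarity pathway, rose by 0.67 ± 0.08, or 1.59-fold, with Prickle1 (0.34 ± 0.10) and the casein kinase Csnk1g1 (0.37 ± 0.07), while Csnk1g2 (-0.36 ± 0.07) and Cxxc5 (-0.26 ± 0.07) fell. Csnk1d, the kinase closest in sequence to Csnk1e, did not pass (-0.14 ± 0.10).

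In the destruction complex Apc rose, Gsk3b fell on its brightest probe set and 4 genes, Ctnnb1 among them, did not pass. Apc, the scaffold that binds β-catenin, had 9.91 and 9.84 in control RNAi and 10.41 and 10.42 in Zfp322a RNAi, a rise of 0.54 ± 0.07 (adjusted p = 0.00358). Another of its 4 probe sets rose by 0.81 ± 0.08, from 6.64 and 6.50 to 7.36 and 7.39, and the remaining probe sets had 0.11 ± 0.08 and 0.24 ± 0.13 and did not pass. All 4 had positive differences.

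Gsk3b, the kinase that marks β-catenin for degradation, had 9.29 and 9.52 in control RNAi and 8.98 and 9.01 in Zfp322a RNAi. It fell by 0.41 ± 0.09, to 75.3% of control (adjusted p = 0.0240). Its 6 probe sets did not move together, and in the fit over all probe sets 3 fell, 1 rose and 2 did not pass. The second brightest rose by 0.42 ± 0.08, from 8.58 and 8.64 to 9.06 and 8.99, while the third fell by 0.50 ± 0.08, from 8.84 and 8.86 to 8.33 and 8.37, and the fifth by 0.32 ± 0.08. The mean of all 6 was -0.15 and did not pass (adjusted p = 0.118). The files do not say which transcript forms the probe sets read, so a direction for Gsk3b as a whole cannot be given from these arrays.

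Ctnnb1 had 13.20 and 13.15 against 13.21 and 13.24, a difference of 0.05 ± 0.07 with a 95% interval of -0.12 to 0.22 (adjusted p = 0.636). The interval leaves no room for a 1.5-fold change on this probe set. Whether a signal this bright still follows the RNA was not tested. A second probe set rose by 0.40 ± 0.08, from 10.49 and 10.58 to 10.92 and 10.94 (adjusted p = 0.0187 over all probe sets), and the third, at 0.23 ± 0.11, did not pass. Gsk3a (-0.21 ± 0.09), Axin1 (-0.12 ± 0.07) and Csnk1a1 (0.08 ± 0.07) completed the group without passing. RNA levels say nothing of the amount of stable β-catenin protein, which is set after translation.

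Of 11 further genes that act on this complex, 4 rose and 2 fell, beside 14% and 14.4% of all genes. Siah1a, an E3 ligase that can degrade β-catenin without the canonical complex, rose by 0.60 ± 0.07, or 1.51-fold. Tnks (0.51 ± 0.07) and Rnf146 (0.44 ± 0.08), which mark and ubiquitinate Axin for degradation, and the deubiquitinase Usp34 (0.32 ± 0.07), which acts on Axin in the other direction, rose as well. Btrc, the F-box protein that recognises phosphorylated β-catenin, fell by 0.30 ± 0.08, and Amer1, an Apc-binding scaffold, fell by 0.31 ± 0.08.

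**Figure D2:**
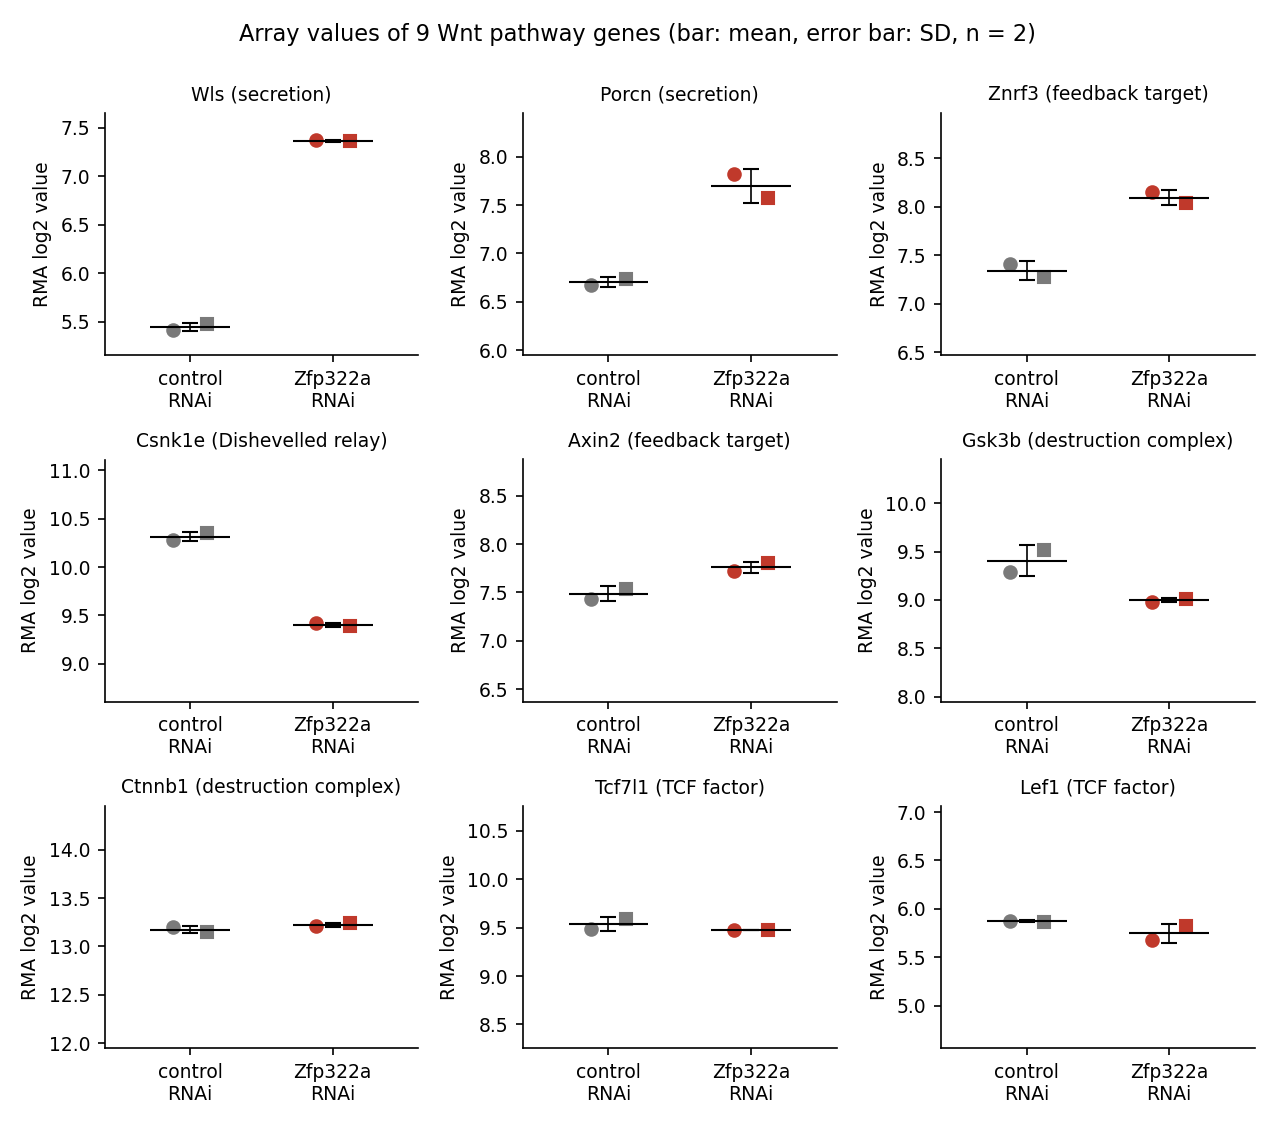
RMA log2 value (vertical axis) of 9 Wnt pathway genes on each array, in control RNAi (grey) and Zfp322a RNAi (red), with circles for replicate 1, squares for replicate 2, a bar at the group mean and the SD over n = 2. Every panel spans the same log2 range, so that the gap of Wls (1.93) can be set beside those of Axin2 (0.28) and Ctnnb1 (0.05).

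None of the 3 TCF factors measured passed the test. Tcf7l1, the main TCF repressor of pluripotency genes in mES cells, had 9.49 and 9.59 in control RNAi and 9.47 on both Zfp322a RNAi arrays, a difference of -0.07 ± 0.07 with a 95% interval of -0.25 to 0.11. Its other probe set had -0.03 ± 0.08. Lef1 had 5.88 and 5.87 against 5.68 and 5.82 (-0.13 ± 0.08, interval -0.32 to 0.07). A 1.5-fold change lies outside both intervals on these probe sets. The values of Lef1 lay under the median level of all genes, and its interval sets no limit on the RNA if the probe set is at background, which was not tested. Tcf7l2 had 7.19 and 7.26 against 7.03 and 6.88 (-0.27 ± 0.08) and narrowly missed the threshold (adjusted p = 0.0561).

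Of the 3 partners of TCF factors on the list, Nlk and Ctbp1 rose. Nlk, a kinase that phosphorylates TCF proteins, had 10.90 and 10.93 against 11.31 and 11.25 and rose by 0.37 ± 0.07. The dimmer probe sets of Nlk had 0.17 ± 0.08 and 0.33 ± 0.18 and did not pass. Ctbp1, a co-repressor, had 10.41 and 10.33 against 10.64 and 10.70 and rose by 0.30 ± 0.07. Its paralog Ctbp2 did not pass on its brightest probe set (0.01 ± 0.09), whereas another probe set fell by 0.54 ± 0.08, from 11.52 and 11.56 to 11.04 and 10.97. Of 15 further co-factors, 3 rose and 3 fell, beside 14% and 14.4% of all genes. The co-repressor Tle4 (0.53 ± 0.07), the co-repressor subunit Tbl1xr1 (0.57 ± 0.07) and Hmgxb4 (0.32 ± 0.07) rose, and Tle5 (-0.32 ± 0.07), the β-catenin antagonist Cby1 (-0.36 ± 0.08) and the co-activator Pygo2 (-0.25 ± 0.07) fell.

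The genes that Tcf7l1 is known to repress in mES cells did not move as a group. Tfcp2l1 fell by 0.88 ± 0.07, from 11.60 and 11.62 to 10.72 and 10.75, and Esrrb fell by 0.41 ± 0.07, from 10.76 and 10.79 to 10.36 and 10.37. Klf2 rose by 0.52 ± 0.07, from 11.17 and 11.28 to 11.74 and 11.75. Nanog (-0.03 ± 0.08) and Nr5a2 (-0.06 ± 0.07) did not pass. All of these also answer to other pluripotency factors.

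Feedback targets, the genes commonly used to read β-catenin activity, were mixed. Znrf3, a membrane E3 ligase that removes Frizzled from the cell surface, had 7.41 and 7.27 in control RNAi and 8.15 and 8.04 in Zfp322a RNAi. It rose by 0.76 ± 0.08, or 1.69-fold (adjusted p = 0.00244), and its second, dimmer probe set had 0.15 ± 0.09 and did not pass. Rnf43, its paralog with the same function, had 4.0 and 3.78 against 4.17 and 3.94 (0.17 ± 0.11), and the groups overlapped. Nkd2, an inhibitor that binds Dishevelled, fell by 0.38 ± 0.07, from 6.85 and 6.81 to 6.46 and 6.44, and its 3 other probe sets did not pass. Nkd1 had 6.66 and 6.58 against 6.57 and 6.60 (-0.04 ± 0.07).

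Axin2, the most widely used target of the pathway, had 7.43 and 7.54 in control RNAi and 7.72 and 7.80 in Zfp322a RNAi, a rise of 0.28 ± 0.08, or 1.21-fold (adjusted p = 0.0443). The call depended on the choice of probe sets. In the fit over all probe sets the same probe set missed the threshold (adjusted p = 0.0701). The other, much dimmer probe set pointed the opposite way, at 4.13 and 4.10 against 3.85 and 3.88 (-0.25 ± 0.08, adjusted p = 0.0675), and the mean of both was 0.01. Sp5, a direct target in mES cells, had 5.63 and 5.70 against 5.77 and 5.87 (0.16 ± 0.07, adjusted p = 0.185), a small difference without overlap that did not pass.

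The stretches of 250 bases before the transcription start of 3 of these genes are shown, from RefSeq (GRCm38.p6), because Sp5 and Axin2 are the targets that report the pathway and Wls had the largest rise. Capitals mark CTTTGA, the core of the TCF recognition sequence, on either strand.
Sp5, chr2:70474673-70474922, plus strand: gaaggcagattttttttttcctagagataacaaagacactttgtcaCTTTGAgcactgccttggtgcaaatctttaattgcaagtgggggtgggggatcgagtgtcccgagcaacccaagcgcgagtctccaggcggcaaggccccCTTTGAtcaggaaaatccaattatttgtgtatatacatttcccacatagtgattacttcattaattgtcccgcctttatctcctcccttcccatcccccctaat
Axin2, chr11:108920099-108920348, plus strand: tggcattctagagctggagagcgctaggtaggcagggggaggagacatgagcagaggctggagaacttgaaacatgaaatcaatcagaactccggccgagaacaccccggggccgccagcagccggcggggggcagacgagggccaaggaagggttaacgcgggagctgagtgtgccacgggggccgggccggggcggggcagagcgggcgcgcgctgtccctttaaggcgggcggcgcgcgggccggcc
Wls, chr3:159839400-159839649, plus strand: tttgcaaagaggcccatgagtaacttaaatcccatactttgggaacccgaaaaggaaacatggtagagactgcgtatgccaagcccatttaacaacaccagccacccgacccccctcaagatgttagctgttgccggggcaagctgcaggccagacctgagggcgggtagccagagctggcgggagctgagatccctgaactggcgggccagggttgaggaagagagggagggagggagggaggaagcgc
Sp5 held 2 matches, which begin 204 and 104 bases before the start, and no match was found in this window of Axin2 or Wls. RefSeq windows were matched for 36 of the 53 genes (50 windows), and 9 windows, each of another gene, had CTTTGA (or TCAAAG, the same letters on the other strand): Sp5, Lef1, Fzd1, Wnt5b, Gsk3a, Wnt11, Ctbp2, Gsk3b and Dkk1. Of all 32851 promoter windows, 13.8% held it. The longer CTTTGAT, which contains the first motif, was found in Sp5, Wnt5b and Wnt11 and in 3.21% of all windows. Of the 9 genes with a match, Fzd1 and Dkk1 rose, Gsk3b fell on its brightest probe set and 6 did not pass.

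On the second list, 4 of 11 targets rose and 0 fell, beside 14% and 14.4% of all genes. Myc rose by 1.12 ± 0.09, or 2.17-fold, from 7.20 and 7.0 to 8.25 and 8.19. Jun rose by 0.89 ± 0.10, from 5.95 and 6.16 to 7.03 and 6.85, the matricellular gene Ccn4 by 0.59 ± 0.08 and the cyclin gene Ccnd1 by 0.49 ± 0.07. These 4 genes also respond to growth factor signalling. Cdx1, Cdx4, Sp8, Mixl1, Msx1, Tnfrsf19 and Cd44, of which several mark mesoderm or the embryo's posterior, did not pass, with differences of -0.21 to 0.30. All 7 lay under the median level of all genes, as did Jun and Ccn4. A difference sets no limit on the RNA where a probe set is at background, which was not tested.

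Secreted antagonists moved in both directions. Dkk1, which blocks Lrp5 and Lrp6 and is itself a Wnt target, had 4.75 and 4.89 in control RNAi and 5.37 and 5.26 in Zfp322a RNAi, a rise of 0.50 ± 0.08 (adjusted p = 0.00868), and its other probe set did not pass (0.16 ± 0.11). These values lay under the median level of all genes, and whether they stood above background was not tested. Dkk3, a divergent member of the same family, fell by 0.50 ± 0.07, from 6.85 and 6.75 to 6.31 and 6.30 (adjusted p = 0.00533). A second Dkk3 probe set fell by 0.33 ± 0.08, from 6.24 and 6.30 to 5.95 and 5.94. Sfrp1, which binds Wnt proteins, had 10.05 and 10.06 against 9.93 and 9.90 (-0.14 ± 0.07) and did not pass. Of its 4 other probe sets 1 fell (-0.38 ± 0.10) and 1 rose (0.42 ± 0.09). Sfrp2 (0.17 ± 0.07) and Sfrp5 (-0.11 ± 0.09) did not pass. Of 10 further inhibitors 1 passed, beside 28.4% of all genes. It was Notum, an enzyme that removes the lipid from Wnt proteins and is a feedback target in many tissues. Notum had 6.31 and 6.04 against 6.84 and 6.56 (0.53 ± 0.13).

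**Figure D3:**
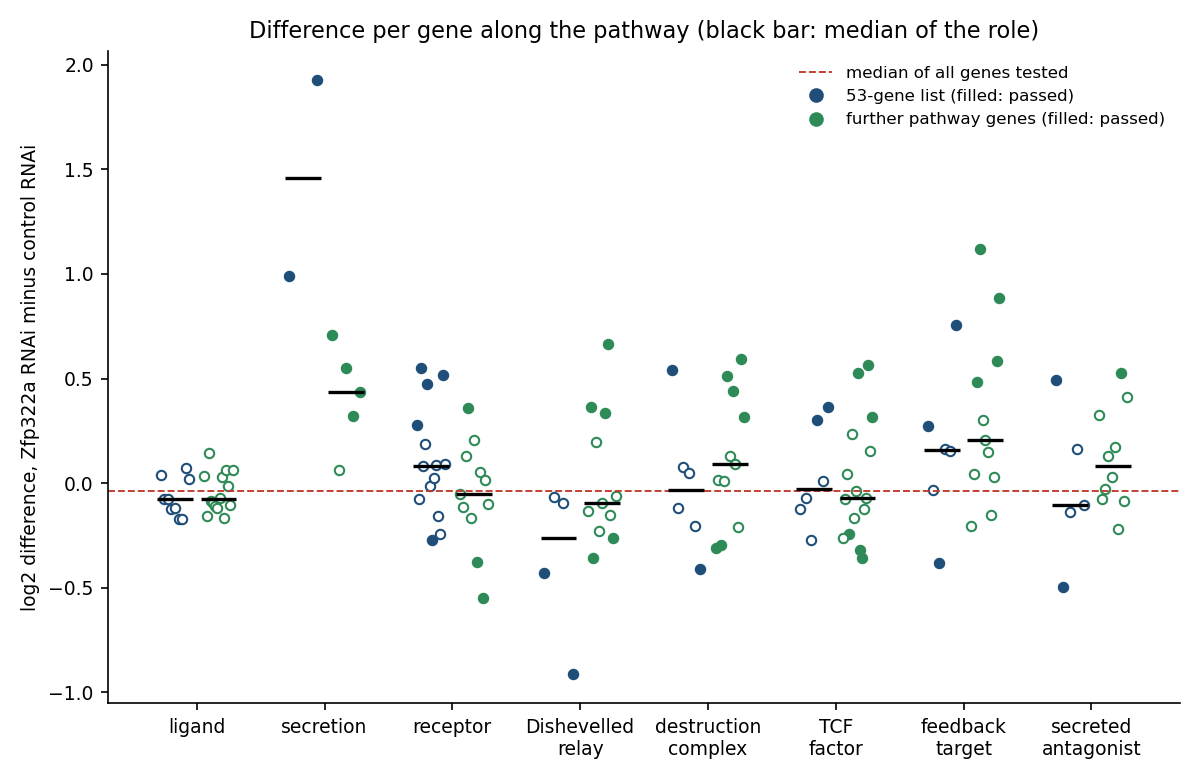
Log2 difference of each gene, Zfp322a RNAi minus control RNAi (vertical axis), by role in the pathway, for the 52 measured genes (blue) and for 88 further pathway genes (green). Filled symbols passed the test, black bars are the median of each role, and the dashed line is the median of all 18193 genes (-0.04). Ligands lie in a narrow band without a filled symbol, and the secretion genes lie above 0 in both lists.

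By role, the median log2 difference over the 52 genes was 1.46 for secretion, 0.16 for feedback targets and 0.08 for receptors. It was -0.03 for TCF factors and their partners, -0.04 for the destruction complex, -0.08 for ligands, -0.11 for antagonists and -0.26 for the Dishevelled relay. On the second list, 20 of 88 measured genes rose, 9 fell and 59 did not pass, or 22.7% and 10.2%, beside 14% and 14.4% of all genes, with a median of 0.03. Secretion, with Atp6ap2 counted in it, had the highest median on that list too (0.44, 5 genes).

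The 52 genes were read by 123 probe sets, of which 17 rose and 14 fell in the fit over all probe sets. In that fit, 20.1% of the probe sets of the whole array passed. Of the 18 genes that passed, 16 had at least 1 other probe set, and for 5 of them (Wls, Csnk1e, Apc, Gsk3b and Dkk3) another probe set passed in the same direction. For the other 11 none of the dimmer probe sets passed in the same direction. A probe set opposite to the brightest passed for 1 gene, Gsk3b. Of 34 genes that did not pass, 23 had another probe set and 6 of these had 1 or more that passed: Ctnnb1, Lrp6, Ctbp2, Sfrp1, Wnt6 and Fzd4. Wls, Apc, Csnk1e and Dkk3 were the genes for which more than 1 probe set passed and none passed the other way. Of the 18 genes, 6 had a mean under the median level of all genes: Wls, Fzd1, Fzd8, Nkd2, Dkk1 and Dkk3. So did 1154 of the 5163 genes called over the whole array. Whether such low values stood above background was not tested.

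**Figure D4:**
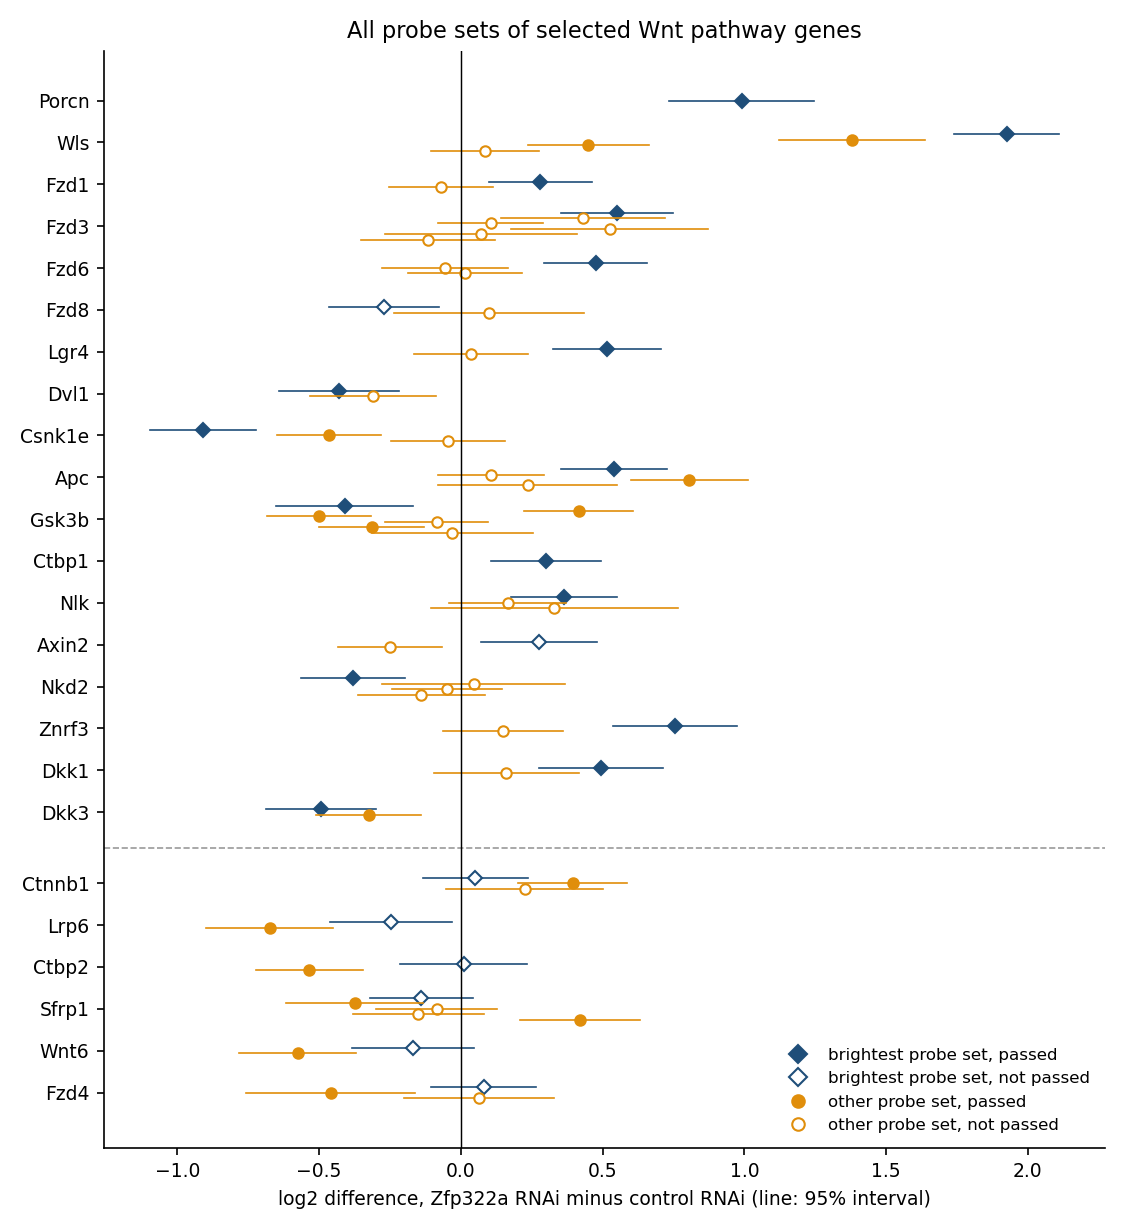
Log2 difference of every probe set, Zfp322a RNAi minus control RNAi (horizontal axis, with 95% intervals), for the 18 genes that passed (above the dashed line) and for 6 genes that did not but had a probe set that passed (below it). Diamonds are the brightest probe set of a gene and circles its other probe sets, filled where the probe set passed in the fit over all 45037 probe sets. The probe sets of Gsk3b lie on both sides of 0, and the brightest ones of Fzd8 and Axin2 are open because they missed the threshold in that fit.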

How the data were processed

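E14 RNA was measured on 4 Affymetrix MG430 2.0 arrays, 2 per group. The authors processed them with RMA (version not given in the sources) and deposited log2 values to 2 decimals for 45037 probe sets. RMA sets all arrays to 1 distribution, so a shift shared by all genes would be removed. Scanner intensities were not used here.

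Gene names came from the platform's annotation, updated to RefSeq symbols: 34945 had 1 symbol, 932 several and 9160 none. The brightest probe set on average stood for each of 18193 genes, without a filter on low values. Tcf7, and Kremen2 and T of the second list, had no probe set matched here. Groups were compared with R 4.3.3 and limma 3.58.1 (linear model with group alone, moderated by eBayes, two-sided, 2 residual degrees of freedom). Differences are log2, Zfp322a RNAi minus control RNAi, ± SE, with n = 2 per group. Adjusted p-values are Benjamini-Hochberg over all genes, with a threshold of 0.05, and those of further probe sets come from the same model over all 45037. Further probe sets were compared for the 52 genes and Zfp322a alone, not for the second list, the Tcf7l1-repressed genes or the markers. The median SE was 0.08, and the number of arrays limits the precision. For a single gene, exact permutation of the 4 arrays gives a p of 0.333 at the lowest. On simulated data the procedure recovered 37 of 67 genes changed by 1.5-fold (55.2%), 94% of those changed by 2-fold and 98.5% by 4-fold. It made 10 false calls among those of the 18193 genes that were left unchanged. Far fewer genes were changed in the simulation than were called in the data. A gene that did not pass may thus still differ.

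The Wnt genes, the second list of 90 pathway genes and the markers were chosen with earlier results of these data known. All 53 genes were accounted for. Values per array were planned for genes past the threshold with at least a 1.5-fold change and for Axin2, Lef1, Tcf7, Tcf7l1, Ctnnb1 and Gsk3b. Other genes given array by array were chosen after their values were seen. Array scaling, the choice of probe set, a filter on low signal, the variance model, the 1.5-fold rule, a replicate block and leaving out each array were tried as alternatives.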

Additional observations from a re-analysis of the deposited data

How the results depend on the processing

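Of the 12 higher and 6 lower Wnt genes, the counts stayed within 1.5 times under array centring (12 and 5), a second quantile normalization (12 and 8), the mean of all probe sets (8 and 6), the fit over every probe set (11 and 5), removal of probe sets that may cross-hybridize (12 and 6), genes under the median level left out (10 and 7 of the 26 Wnt genes then tested) and an intensity trend in the variance (12 and 8). Of all genes tested, 59.4% were called with low genes left out and 34.5% with the trend, against 28.4%. The 1.5-fold rule without a test gave 3 and 1. With the replicate number as a block (replicate block), 7 and 3 passed, all among the 18, with 14.6% of all genes called. Fzd1, Fzd8, Dvl1, Gsk3b, Ctbp1, Nlk, Axin2 and Dkk1 lost the call. The deviations of same-numbered arrays had a correlation of 0.06, so the numbers are not taken to pair the samples. Without 1 array the counts ranged from 0 to 0 higher and from 0 to 0 lower, and Zfp322a, at -1.67 to -1.27, also lost its adjusted call (0.0793 to 0.113), as did all 18 Wnt genes and every other gene tested. The difference of Wls stayed at 1.90 to 1.96 and that of Csnk1e at -0.95 to -0.88. No difference of the 18 genes changed direction under these alternatives.

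Averaging all probe sets ended the calls of Fzd1, Fzd3, Fzd6, Fzd8, Gsk3b, Axin2 and Nkd2, added Ctbp2, Lrp6 and Wnt6, and moved Wls from 1.93 to 0.96. Axin2 and Fzd8 did not pass in the fit over every probe set, Fzd8 not after array centring, and Fzd1 and Fzd8 not with the intensity trend. Tcf7l2 passed under 3 of the settings, Lrp6 under 4, Fzd5 and Gsk3a under 2 and Wnt7b under 1. The cause of these differences was not tested.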
